A study of Mus musculus with 12 samples.

Results

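The genes described here are 10 that mammalian cells often raise under mitochondrial or amino acid stress: *Atf4*, *Ddit3*, *Trib3*, *Asns*, *Chac1*, *Sesn2*, *Phgdh*, *Psat1*, *Shmt2* and *Mthfd2*. They were found by symbol in the deposited count table, which held 11 rows for these 10 genes among 55471 genes in all. The cells were mouse dendritic cells (DCs) differentiated in GM-CSF, a myeloid growth factor, from the marrow of female C57BL/6 mice of 8 to 20 weeks. They carried a retrovirus encoding a short hairpin RNA. In shControl cells the hairpin targeted the luciferase of the firefly, and in sh*Ppargc1b* cells it targeted *Ppargc1b*, which encodes the mitochondrial co-activator PGC-1β. Transduced cells were enriched on the human CD8 reporter of the vector before use. Each was left unstimulated or treated with the antiviral cytokine interferon-β (IFN-β) for 6 h, which gave 4 groups of 3 libraries: shControl unstimulated, sh*Ppargc1b* unstimulated, shControl with IFN-β and sh*Ppargc1b* with IFN-β. All 4 groups were therefore transduced, sorted cells. The labels do not say which *Ppargc1b* hairpin these libraries carry or name a second one, so in these data an effect of the hairpin itself and of the loss of PGC-1β cannot be told apart. The paper describes a second *Ppargc1b* hairpin and states that the first served in most of its experiments unless noted.

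ATF4 is a transcription factor whose translation increases when the initiation factor eIF2α is phosphorylated by 1 of several kinases, a pathway called the integrated stress response. Its targets restore the supply of amino acids, and they include the enzymes that make serine from a glycolytic intermediate and the mitochondrial enzymes that pass the carbon of serine to folate. In mammalian cells with damaged respiration these targets are a commonly reported response. Because ATF4 is controlled largely at translation, its mRNA level is not a measure of its protein, and no protein was measured here.

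The knockdown itself was checked with *Ppargc1b*, the gene the hairpin targets. *Ppargc1b* (ENSMUSG00000033871) had 33.3, 33.4 and 36.7 CPM (counts scaled to a common library size) in unstimulated shControl and 18.6, 19.3 and 20.3 CPM in unstimulated sh*Ppargc1b* libraries. With IFN-β it had 23.6, 28.4 and 31.4 CPM in shControl and 15.5, 19.6 and 20.9 CPM in sh*Ppargc1b* libraries. The groups did not overlap in either treatment, and the targeted transcript was lowered but not lost. Its log2 fold change was -0.83 ± 0.10 without IFN-β (SE, edgeR adjusted p = 3.2e-05) and -0.57 ± 0.11 with it (edgeR adjusted p = 0.00095). In shControl cells IFN-β itself lowered *Ppargc1b* (-0.31 ± 0.10, edgeR adjusted p = 0.021), a call kept in 17 of 19 alternative settings. Library totals were 49.9 to 77.7 M counts. Of the 10 genes, 9 had at least 100 counts in every library, and *Chac1* had 3 to 31 counts. All 10 were among the 18228 genes tested. The row not tested was a second *Ddit3* identifier (ENSMUSG00000116429), an annotation of 105 bases inside the exons of *Ddit3* with 0 counts in every library.

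Levels can be compared between genes only per length, and are given for that purpose as CPM per kilobase of exon. In unstimulated shControl cells *Atf4* stood highest, at 43.2 ± 1.57 CPM per kilobase (SD, n = 3). *Sesn2* followed at 10.4 ± 0.274, *Mthfd2* at 6.45 ± 0.307, *Psat1* at 5.09 ± 0.496 and *Ddit3* at 4.28 ± 0.0945 CPM per kilobase. *Shmt2*, *Trib3*, *Asns* and *Phgdh* lay between 3.40 and 0.950, and *Chac1* was lowest at 0.128 CPM per kilobase. With IFN-β the order changed in shControl cells. *Mthfd2*, at 14.9 ± 0.244 CPM per kilobase, passed *Sesn2* at 9.26 ± 0.411, *Ddit3* passed *Psat1*, and *Shmt2* dropped below *Trib3* and to about the level of *Asns*. The level of *Phgdh* is a lower limit. Its transcript matched 16 other annotated genes at high identity, 7 of them over more than 1500 bases at 95.3% to 98.7% identity, and the counts exclude read pairs that map to more than 1 place.

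**Figure D1:**
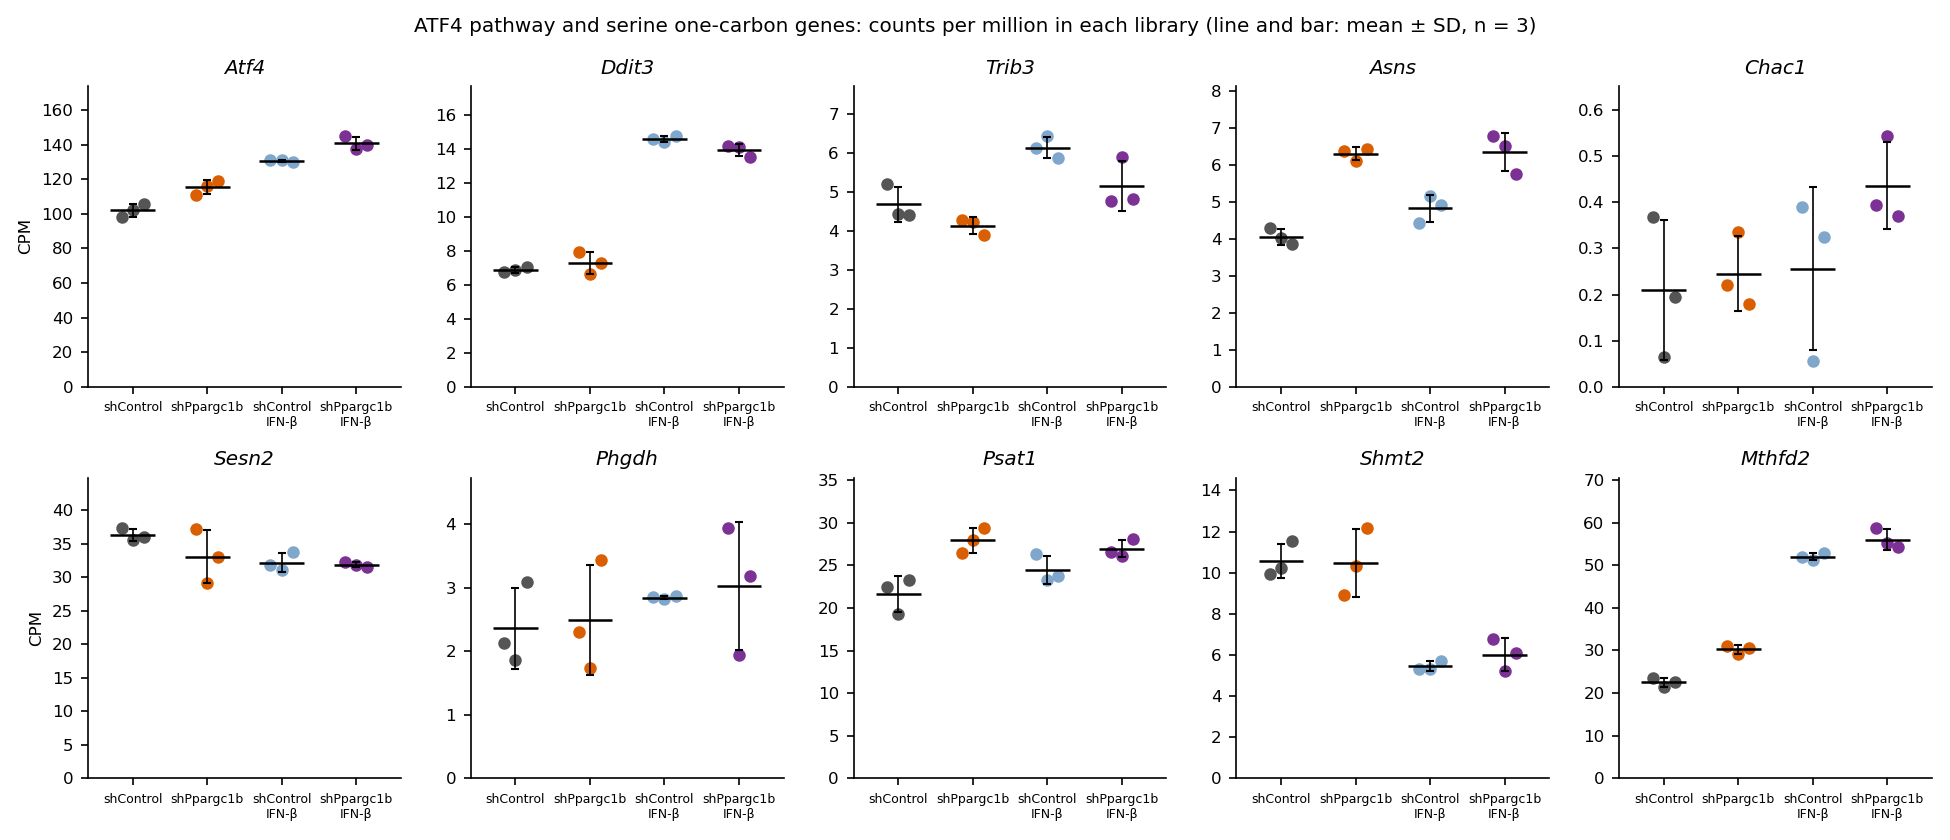
CPM of the 10 genes (vertical axis, linear from 0, own scale in each panel) in the 4 groups (horizontal axis), with 1 point per library, the mean as a line and the SD over 3 libraries as a bar. *Asns* is high in both sh*Ppargc1b* groups, *Ddit3* and *Mthfd2* are high in both IFN-β groups, *Shmt2* is low in both IFN-β groups, and *Chac1* and *Phgdh* scatter within groups.

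Many ATF4 targets carry a composite element near their start site at which ATF4 binds together with a C/EBP protein, whose core is written TGATGNAA. These letters were searched on both strands of the RefSeq promoter windows (GRCm38.p6, 250 bases before to 50 after a start). They occurred in 3 of the 10 genes (30%) and in 1219 of all 27025 genes (4.51%), and in 10 of 24 other known ATF4 targets with a window (41.7%). The 3 promoters are shown because they differ in what their genes did: *Asns* was higher in sh*Ppargc1b* cells, *Trib3* was not past the threshold in either treatment, and *Chac1* was nearly silent. Capitals mark the match, which reads on the strand of the gene in *Asns* and on the opposite strand in *Trib3* and *Chac1*.
*Asns* (chr6:7693160-7693459, minus strand): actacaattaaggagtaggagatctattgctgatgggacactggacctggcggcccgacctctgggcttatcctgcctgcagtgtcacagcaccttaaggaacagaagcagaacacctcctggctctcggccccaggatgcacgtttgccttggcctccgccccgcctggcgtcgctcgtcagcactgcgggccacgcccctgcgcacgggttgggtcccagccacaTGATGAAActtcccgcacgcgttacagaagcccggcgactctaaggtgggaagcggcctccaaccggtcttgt
*Trib3* (chr2:152344011-152344310, minus strand): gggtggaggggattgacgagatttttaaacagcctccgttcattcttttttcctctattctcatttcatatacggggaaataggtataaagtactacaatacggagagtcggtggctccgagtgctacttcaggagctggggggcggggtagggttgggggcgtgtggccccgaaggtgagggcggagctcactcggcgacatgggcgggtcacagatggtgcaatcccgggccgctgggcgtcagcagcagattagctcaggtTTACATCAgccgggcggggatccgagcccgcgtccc
*Chac1* (chr2:119350992-119351291, plus strand): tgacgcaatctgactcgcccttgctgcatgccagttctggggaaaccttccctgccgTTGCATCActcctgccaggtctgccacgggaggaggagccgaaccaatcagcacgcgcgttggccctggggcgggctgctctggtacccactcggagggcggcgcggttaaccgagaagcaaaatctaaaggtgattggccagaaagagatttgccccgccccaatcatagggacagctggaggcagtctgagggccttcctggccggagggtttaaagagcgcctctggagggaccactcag
The match began 23 bases before the start in *Asns*, 14 bases after it in *Trib3* and 193 bases before it in *Chac1*. The other 7 genes, *Atf4*, *Psat1* and *Mthfd2* among them, did not have these letters in the window, and none of the 10 had the cyclic AMP response element TGACGTCA, which 2.03% of all genes held. A match is a description of letters and does not show binding.

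The first question is what the knockdown of *Ppargc1b* did to these genes in resting cells. *Asns*, *Mthfd2*, *Psat1* and *Atf4* were higher in unstimulated sh*Ppargc1b* than in shControl cells, by 1.13 to 1.55 times, and none was lower. That is 4 of 10 higher. Over all tested genes, 12.4% passed as higher and 11.1% as lower at an adjusted p under 0.05 (edgeR quasi-likelihood test, Benjamini-Hochberg over 18228 genes). The median log2 fold change of the 10 genes was 0.13, and that of all genes was -0.0049. The libraries of both groups did not overlap in 5 of the 10 genes, against 36.8% of all genes.

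*Asns* (ENSMUSG00000029752, chromosome 6, 7675169 to 7693254, minus strand, GRCm38) encodes asparagine synthetase, a much used reporter of ATF4 activity, and showed the largest change of the 4. It had 3.85, 4.01 and 4.29 CPM in unstimulated shControl and 6.10, 6.36 and 6.43 CPM in unstimulated sh*Ppargc1b* libraries. Every sh*Ppargc1b* library lay above every shControl library, and the log2 fold change was 0.64 ± 0.10 (SE, edgeR adjusted p = 0.00016). *Mthfd2* (ENSMUSG00000005667, chromosome 6, 83305691 to 83325908, minus strand) encodes the mitochondrial dehydrogenase and cyclohydrolase that oxidises methylene-folate. It rose from 21.4, 22.5 and 23.6 to 29.1, 30.5 and 31.1 CPM, again with no overlap (0.43 ± 0.05, edgeR adjusted p = 1.7e-05).

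*Psat1* (ENSMUSG00000024640, chromosome 19, 15904678 to 15947337, minus strand) encodes phosphoserine aminotransferase, the middle enzyme of serine synthesis. It had 19.3, 22.4 and 23.3 CPM in unstimulated shControl and 26.4, 28.0 and 29.4 CPM in unstimulated sh*Ppargc1b* libraries, which did not overlap (0.37 ± 0.07, edgeR adjusted p = 0.00148). *Atf4* itself (ENSMUSG00000042406, chromosome 15, 80255184 to 80257541, plus strand) went from 98.2, 102 and 106 to 111, 116 and 119 CPM. The groups were close but did not overlap, and the difference was the smallest of the 4 (0.18 ± 0.04, edgeR adjusted p = 0.00381). All 4 calls were kept under each of the 19 alternative settings tried, with adjusted p of at most 0.0213 for *Atf4* and 0.00888 for *Psat1*. The exact two-sided permutation p of each was 0.1, which is the lowest value possible with 3 libraries in each group.

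The other 6 genes did not pass in unstimulated cells, and they did not lean one way. *Trib3* (ENSMUSG00000032715, chromosome 2, 152337422 to 152344032, minus strand), a pseudokinase that ATF4 and CHOP induce and that restrains them, had 4.40, 4.44 and 5.20 CPM in shControl and 3.89, 4.21 and 4.29 CPM in sh*Ppargc1b* libraries. Its libraries did not overlap and the fitted difference was negative, at -0.18 ± 0.11 (edgeR adjusted p = 0.274). *Sesn2* (ENSMUSG00000028893, chromosome 4, 132492032 to 132510501, minus strand), which encodes a leucine-binding inhibitor of the growth kinase mTORC1, had 35.6, 35.9 and 37.4 CPM in shControl and 29.1, 33.0 and 37.1 CPM in sh*Ppargc1b* libraries. One sh*Ppargc1b* library, replicate 1, lay within the shControl range (-0.14 ± 0.07, edgeR adjusted p = 0.186), and without it *Sesn2* passed as lower (-0.22, adjusted p = 0.0152).

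*Ddit3* (ENSMUSG00000025408, chromosome 10, 127290774 to 127296288, plus strand) encodes CHOP, the factor of the pathway linked to cell death. It had 6.74, 6.86 and 7.04 CPM in unstimulated shControl and 6.64, 7.26 and 7.95 CPM in unstimulated sh*Ppargc1b* libraries, which overlapped (0.08 ± 0.07, edgeR adjusted p = 0.504). *Shmt2* (ENSMUSG00000025403, chromosome 10, 127517123 to 127522444, minus strand), the mitochondrial enzyme that splits serine into glycine and a folate-bound carbon directly upstream of *Mthfd2*, had 9.96, 10.2 and 11.5 CPM and 8.93, 10.3 and 12.2 CPM (-0.01 ± 0.11, edgeR adjusted p = 0.972). The values of *Shmt2* thus spread around the same level in both groups while those of *Mthfd2* separated. Small parts of *Ddit3* (81 bases) and *Shmt2* (32 bases) overlap exons on the other strand, and whether counting used strand is not given in the sources used here.

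*Phgdh* (ENSMUSG00000053398, chromosome 3, 98313170 to 98339990, minus strand), the first enzyme of serine synthesis, had 1.87, 2.13 and 3.09 CPM in unstimulated shControl and 1.74, 2.31 and 3.44 CPM in unstimulated sh*Ppargc1b* libraries. The spread within each group was much wider than the difference between them (0.09 ± 0.26, edgeR adjusted p = 0.866). The libraries carry code numbers in 3 runs of 4, each with 1 library of every group. In the unstimulated groups the highest *Phgdh* value of both came from the last run and the lowest from the middle run. *Chac1* (ENSMUSG00000027313, chromosome 2, 119351229 to 119354381, plus strand), which degrades glutathione and is among the strongest ATF4 and CHOP targets in many cells, had 4, 11 and 21 counts in shControl and 12, 13 and 23 counts in sh*Ppargc1b* libraries. A difference was not detectable at this depth (0.24 ± 0.58, edgeR adjusted p = 0.824).

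**Figure D2:**
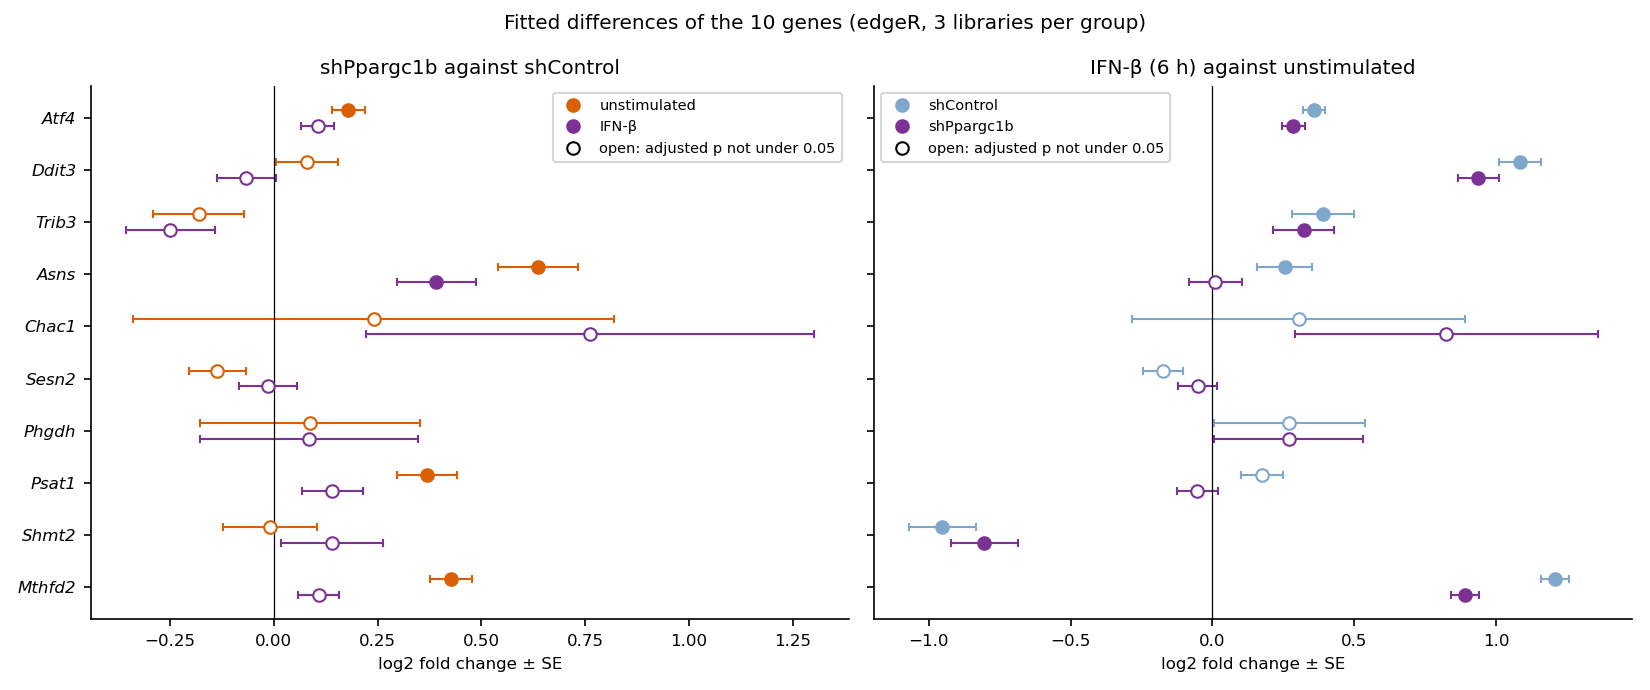
Fitted log2 fold changes with their SE (horizontal axis) of the 10 genes (vertical axis), for sh*Ppargc1b* against shControl cells on the left and IFN-β against unstimulated cells on the right. Filled points have an adjusted p under 0.05. On the left 4 genes are filled in unstimulated cells and only *Asns* with IFN-β, and on the right *Ddit3* and *Mthfd2* lie near 1 while *Shmt2* lies near -1 in both lines.

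With IFN-β, *Asns* alone of the 10 genes was higher in sh*Ppargc1b* cells and none was lower, while 11.5% of all genes passed as higher and 12.7% as lower. *Asns* had 4.43, 4.91 and 5.14 CPM in shControl and 5.76, 6.50 and 6.77 CPM in sh*Ppargc1b* libraries with IFN-β. The groups did not overlap, the log2 fold change was 0.39 ± 0.10 (SE, edgeR adjusted p = 0.00712), and the call was kept in all 19 alternatives. Libraries did not overlap in 4 of the 10 genes, against 38.7% of all genes.

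*Atf4* had 130, 131 and 131 CPM in shControl and 137, 140 and 145 CPM in sh*Ppargc1b* libraries with IFN-β. The groups did not overlap, yet the difference of 0.11 ± 0.04 lay at the edge of the test, with an edgeR adjusted p of 0.0666 that ranged from 0.0233 to 0.207 and passed in 10 of 19 alternatives. These include leaving out any 1 unstimulated library, none of which is in this comparison. Each of those fits gave the same value of 0.13, and the median of all genes moved from -0.0108 to 0.0099. *Mthfd2* also did not overlap, with 51.1, 52.0 and 52.8 CPM against 54.2, 55.1 and 58.8 CPM, and was not past the threshold (0.11 ± 0.05, edgeR adjusted p = 0.125). *Psat1*, with 23.3, 23.8 and 26.3 CPM against 26.2, 26.6 and 28.1 CPM, overlapped by 1 library (0.14 ± 0.07, edgeR adjusted p = 0.185).

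*Trib3* had 5.87, 6.11 and 6.43 CPM in shControl and 4.76, 4.82 and 5.89 CPM in sh*Ppargc1b* libraries with IFN-β, so that 1 sh*Ppargc1b* library, replicate 2, reached the shControl range. Its fitted difference was -0.25 ± 0.11 (edgeR adjusted p = 0.112), and without that library it passed as lower (-0.36, adjusted p = 0.0323). In both treatments the value of *Trib3* was thus negative while that of *Asns* was positive, with the *Trib3* difference past the threshold in neither. *Ddit3* gave -0.07 ± 0.07, *Sesn2* -0.01 ± 0.07, *Phgdh* 0.08 ± 0.26, *Shmt2* 0.14 ± 0.12 and *Chac1* 0.76 ± 0.54, none of them past the threshold.

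The next question is how IFN-β itself moved these genes. In shControl cells 5 of the 10 were higher after 6 h, *Mthfd2*, *Ddit3*, *Trib3*, *Atf4* and *Asns*, and *Shmt2* was lower, where 23.7% of all genes passed as higher and 24.6% as lower. With the *Ppargc1b* hairpin *Ddit3*, *Mthfd2*, *Trib3* and *Atf4* were higher and *Shmt2* was lower, against 21.4% and 21.2%. Scaling by library totals in place of the trimmed mean of M-values (TMM) moved the median of all genes to -0.27 in shControl and -0.22 in sh*Ppargc1b* cells. It left 3 of the 10 genes higher (*Mthfd2*, *Ddit3* and *Atf4*) and 2 lower (*Shmt2* and *Sesn2*) in shControl, and 2 higher (*Ddit3* and *Mthfd2*) and 3 lower (*Shmt2*, *Sesn2* and *Psat1*) in sh*Ppargc1b* cells. The split of all genes moved with it, from 4312 higher and 4481 lower to 2598 and 8294 in shControl, and from 3895 and 3865 to 2340 and 7551 in sh*Ppargc1b* cells.

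The pair of mitochondrial folate enzymes moved in opposite directions. *Mthfd2* rose in shControl from the 21.4 to 23.6 CPM given above to 51.1, 52.0 and 52.8 CPM, a log2 fold change of 1.21 ± 0.05 (SE, edgeR adjusted p = 1.3e-11). In sh*Ppargc1b* cells the rise was 0.89 ± 0.05 (edgeR adjusted p = 6.3e-10). *Shmt2* fell in shControl to 5.29, 5.33 and 5.73 CPM (-0.95 ± 0.12, edgeR adjusted p = 6.9e-06) and in sh*Ppargc1b* cells to 5.20, 6.09 and 6.77 CPM (-0.80 ± 0.12, edgeR adjusted p = 4.7e-05). No library with IFN-β overlapped an unstimulated library of the same hairpin for either gene, and both directions held in all 19 alternatives.

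The transcription factors rose with IFN-β. *Ddit3* reached 14.4, 14.6 and 14.8 CPM in shControl (1.08 ± 0.07, edgeR adjusted p = 5.9e-09) and 13.5, 14.1 and 14.2 CPM in sh*Ppargc1b* cells (0.94 ± 0.07, edgeR adjusted p = 4.2e-08), about 2.12 and 1.92 times the unstimulated level. *Atf4* rose less, by 0.36 ± 0.04 in shControl (edgeR adjusted p = 2e-06) and 0.29 ± 0.04 in sh*Ppargc1b* cells (edgeR adjusted p = 2.9e-05). With library totals the value of *Atf4* in sh*Ppargc1b* cells was no longer past the threshold (0.08, edgeR adjusted p = 0.114). *Trib3* rose by 0.39 ± 0.11 in shControl (edgeR adjusted p = 0.00712) and 0.32 ± 0.11 in sh*Ppargc1b* cells (edgeR adjusted p = 0.0266), and with library totals neither value passed (adjusted p = 0.234 and 0.376). In sh*Ppargc1b* cells the *Trib3* call also depended on single libraries, with an adjusted p of 0.15 without sh*Ppargc1b* IFN-β replicate 2 and of 0.0943 without sh*Ppargc1b* unstimulated replicate 3.

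Of the amino acid genes, *Asns* passed narrowly in shControl (0.26 ± 0.10, edgeR adjusted p = 0.0422) and lost the call in 11 of 19 alternatives, with adjusted p from 0.0272 to 0.907. The highest came from library totals, and among the libraries left out the call was lost without any 1 of shControl unstimulated replicates 1, 2 and 3, shControl IFN-β replicates 2 and 3, and the 3 unstimulated sh*Ppargc1b* libraries. Those last 3 libraries are not in this comparison, and leaving out any 1 of them gave the same value of 0.24. In sh*Ppargc1b* cells the *Asns* libraries with IFN-β lay on both sides of the unstimulated range (0.01 ± 0.09, edgeR adjusted p = 0.948). *Sesn2* (-0.17 ± 0.07, edgeR adjusted p = 0.0514) and *Psat1* (0.18 ± 0.07, edgeR adjusted p = 0.0606) lay just outside the threshold in shControl. *Sesn2* passed as lower in 8 of 19 alternatives. *Psat1* passed as higher in 5 of 19, and its value turned to -0.06 with library totals. Both genes passed with a term for the run of library codes (edgeR adjusted p = 0.0246 for *Sesn2* and 0.0322 for *Psat1*). *Phgdh* and *Chac1* passed in neither line.

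Whether IFN-β changed the effect of the knockdown was tested as an interaction: the difference made by the hairpin in treated cells, less that in unstimulated cells. With edgeR 0 of 10 genes passed, while 0.73% of all genes did in either direction, 2 of the 10 had an unadjusted p under 0.05, and DESeq2 called 1. That gene was *Mthfd2*, with an interaction of -0.32 ± 0.07, an edgeR adjusted p of 0.0506 and a DESeq2 adjusted p of 0.00368. It passed in 5 of 18 alternatives (adjusted p 0.00368 to 0.161). Its knockdown effect was 0.43 without and 0.11 with IFN-β. *Psat1* was the other, at -0.23 ± 0.10 (edgeR adjusted p = 0.446). The remaining 8 values ran from -0.25 for *Asns* to 0.52 for *Chac1*. For *Ppargc1b* itself the knockdown effect was -0.83 without and -0.57 with IFN-β, and the interaction did not pass (0.25 ± 0.15, edgeR adjusted p = 0.62). The knockdown and the IFN-β comparisons share groups, so their values for a gene are not independent of each other.

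The order of the 4 groups differed between the genes. For *Atf4* and *Mthfd2* it was shControl unstimulated, sh*Ppargc1b* unstimulated, shControl with IFN-β, sh*Ppargc1b* with IFN-β, from low to high, and no neighbours in that order had overlapping libraries. For *Asns* the order followed the hairpin first, with 4.05 ± 0.222 and 4.83 ± 0.364 CPM in the shControl groups and 6.30 ± 0.175 and 6.34 ± 0.524 CPM in the sh*Ppargc1b* groups, the last 2 of which overlapped. *Psat1* also followed the hairpin first, at 21.7 and 24.5 CPM in shControl and 27.0 and 28.0 CPM in sh*Ppargc1b* groups. Its libraries overlapped between the hairpins with IFN-β and between both sh*Ppargc1b* groups. For *Ddit3*, *Shmt2* and *Trib3* the order followed the treatment first, as it did for *Atf4* and *Mthfd2*, though *Trib3* libraries overlapped between the treatments. For *Sesn2*, *Phgdh* and *Chac1* the libraries of all neighbouring groups overlapped.

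Beyond the 10 genes, a list of 28 other ATF4 targets from general knowledge was examined, of which 26 were tested. The knockdown raised 10 and lowered 2 of them in unstimulated cells and raised 9 and lowered 6 with IFN-β, with a median log2 fold change of 0.19 and 0.13 against -0.0049 and -0.0108 over all genes. The shares of all genes were again 12.4% higher and 11.1% lower without IFN-β, and 11.5% and 12.7% with it. Library totals gave 10 higher and 4 lower with IFN-β. Higher in both treatments were *Slc7a5*, *Slc6a9*, *Slc1a4*, *Slc7a11*, *Slc7a1* and *Aldh18a1*. *Slc7a5*, the large neutral amino acid carrier, had 6.93 to 10.4 CPM in unstimulated shControl and 9.60 to 16.1 CPM in unstimulated sh*Ppargc1b* libraries, and with IFN-β 6.44 to 7.97 and 13.1 to 15.7 CPM. Its libraries overlapped without IFN-β (0.68 ± 0.17, edgeR adjusted p = 0.00834) and were well apart with it (1.04 ± 0.17, edgeR adjusted p = 0.00041). The glycine carrier *Slc6a9* rose by 0.74 and 0.65, the alanine and serine carrier *Slc1a4* by 0.68 and 0.66, the cystine carrier *Slc7a11* by 0.60 and 0.52 and the cationic amino acid carrier *Slc7a1* by 0.43 and 0.49, without and with IFN-β in turn. *Slc7a11*, *Slc7a1* and the proline synthesis gene *Aldh18a1* (0.34 and 0.42) are named here after their values were seen.

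Not all targets rose. *Nupr1*, a stress-induced chromatin protein, fell by 0.50 and 0.44, *Cebpg*, which encodes a partner of ATF4 on DNA, fell by 0.22 and 0.21, and with IFN-β *Eif4ebp1*, an inhibitor of cap-dependent translation, fell by 0.48 (edgeR adjusted p = 0.00013). *Slc3a2* encodes the chain that pairs with *Slc7a5* at the membrane, and it behaved differently in the 2 treatments. *Slc3a2* was higher in sh*Ppargc1b* cells without IFN-β (0.42 ± 0.04, edgeR adjusted p = 3.2e-06) and was at 0.10 ± 0.04 with it (edgeR adjusted p = 0.105), and the interaction passed (-0.32, edgeR adjusted p = 0.0206), though in only 10 of 18 alternatives. IFN-β in shControl raised 4 of the 26 targets and lowered 10 (3 and 14 with library totals), against 23.7% and 24.6% of all genes, led by rises of *Slc3a2* (0.83) and *Nupr1* (0.75) and falls of the glutamine carrier *Slc1a5* (-0.93) and of *Atf5* (-0.89), a close relative of *Atf4*.

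**Figure D3:**
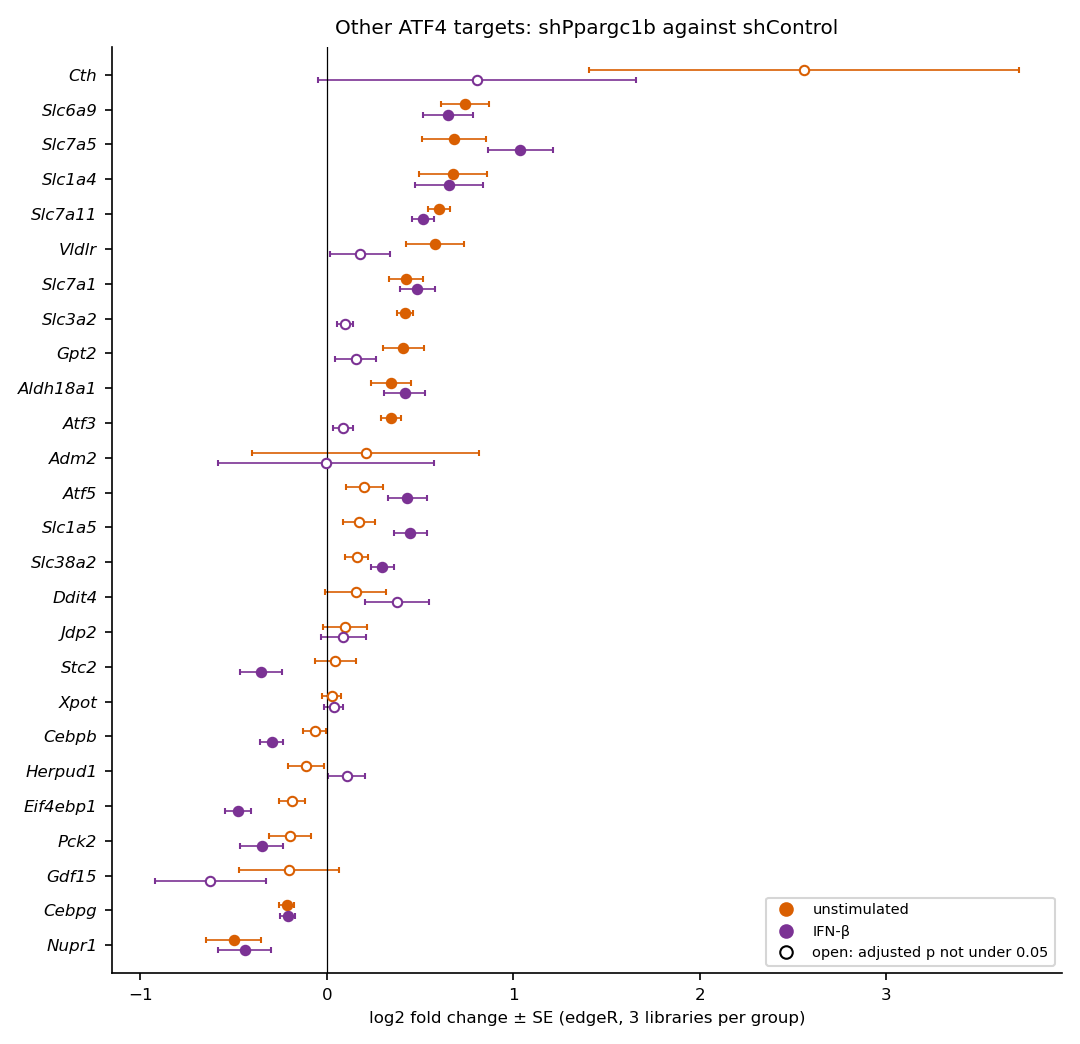
Fitted log2 fold changes of sh*Ppargc1b* against shControl cells with their SE (horizontal axis) for the 26 tested other ATF4 targets (vertical axis, in the order of the unstimulated value), unstimulated in orange and with IFN-β in purple, filled where the adjusted p is under 0.05. The amino acid carriers *Slc6a9*, *Slc7a5*, *Slc1a4*, *Slc7a11* and *Slc7a1* are filled and to the right in both treatments, and *Nupr1* and *Cebpg* are filled and to the left in both.

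Upstream of ATF4, 16 genes of the eIF2α kinases, their substrate and its exchange factor, the phosphatase subunits and the mitochondrial relay were tested. The knockdown raised 3 and lowered 2 of these in unstimulated cells, and raised 3 and lowered 3 with IFN-β (3 and 2 with library totals), with medians of 0.05 and 0.04. The shares of all genes were 12.4% higher and 11.1% lower without IFN-β and 11.5% and 12.7% with it. The higher ones in both treatments were *Eif2b3*, a subunit of the exchange factor (0.38 and 0.86), *Eif2s1*, which encodes eIF2α (0.24 and 0.20), and *Impact*, a regulator of the kinase GCN2 (0.18 and 0.20, named after its values were seen). *Eif2ak1*, the haem-regulated kinase HRI that relays mitochondrial stress, was lower without IFN-β (-0.19, edgeR adjusted p = 0.00462) and with it (-0.15, edgeR adjusted p = 0.0222). IFN-β in shControl raised 3 and lowered 8 (3 and 12 with library totals), against 23.7% and 24.6% of all genes, with the largest rise in *Eif2ak2*, the interferon-induced kinase PKR (1.80 ± 0.04), a rise of the phosphatase subunit *Ppp1r15a* (0.64) and the largest fall in *Eif2b3* (-1.45 ± 0.12).

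The genes around the serine and folate members were examined in the same way. Of 28 tested other genes of serine, folate and the methionine cycle, the knockdown raised 3 and lowered 3 in unstimulated cells and raised 4 and lowered 5 with IFN-β, with medians of 0.0041 and 0.0022. These counts lie near the shares of all genes given above (12.4% higher and 11.1% lower without IFN-β, 11.5% and 12.7% with it). *Mthfd2l*, which encodes the isozyme of *Mthfd2*, rose by 0.41 without IFN-β (edgeR adjusted p = 0.00349), and *Mtrr*, which keeps methionine synthase active, rose by 0.33 and 0.48. *Aldh1l1*, the cytosolic enzyme that burns formyl-folate, fell by 0.52 and 0.58, and the mitochondrial serine carrier family member *Sfxn3* fell by 0.40 without IFN-β. With IFN-β *Sfxn3* also passed as lower, at 45.0 ± 2.98 CPM in shControl and 36.5 ± 2.38 CPM in sh*Ppargc1b* cells (SD, n = 3). *Psph*, the last enzyme of serine synthesis, was at -0.02 and 0.00, and *Shmt1*, the cytosolic counterpart of *Shmt2*, at -0.37 ± 0.30 and -0.28 ± 0.34, none of them past the threshold.

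IFN-β in shControl lowered 13 of these 28 genes and raised 6 (19 and 3 with library totals), with a median of -0.41 against -0.0338 over all genes, of which 23.7% were raised and 24.6% lowered. The trifunctional cytosolic enzyme gene *Mthfd1* fell from 12.3 to 13.4 CPM to 3.98 to 4.15 CPM (-1.66 ± 0.12, edgeR adjusted p = 1.5e-08), and *Atic*, which closes the purine ring with formyl-folate, fell by 1.33. *Aldh1l1* rose by 1.15 (edgeR adjusted p = 3.6e-09) and *Mthfs*, which returns formyl-folate to the folate pool, rose by 0.53 (edgeR adjusted p = 1.2e-06). Among the folate enzymes named here, *Mthfd2*, *Aldh1l1* and *Mthfs* therefore rose with IFN-β in shControl while *Shmt2*, *Mthfd1* and *Mthfd2l* (-0.29, edgeR adjusted p = 0.0167) fell. The directions of *Mthfd2*, *Shmt2*, *Mthfd1* and *Mthfd2l* were also called with library totals.

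**Figure D4:**
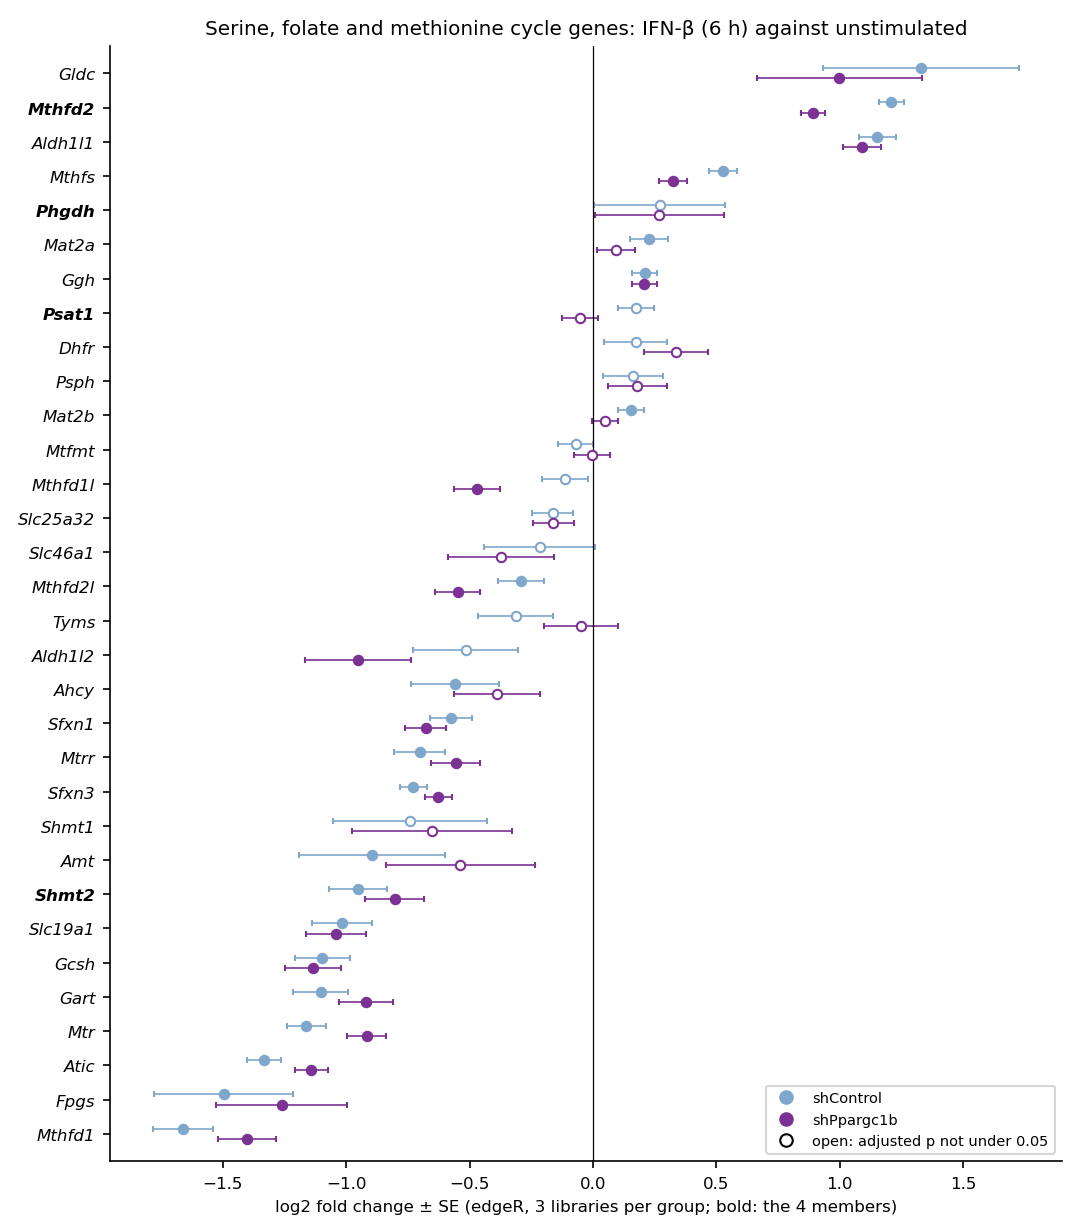
Fitted log2 fold changes of IFN-β against unstimulated cells with their SE (horizontal axis) for 32 serine, folate and methionine cycle genes (vertical axis, in the order of the shControl value, the 4 members in bold), shControl in blue and sh*Ppargc1b* in purple, filled where the adjusted p is under 0.05. *Mthfd2* and *Aldh1l1* stand to the right and *Mthfd1*, *Atic* and *Shmt2* to the left in both lines.

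Close relatives of the 10 genes were examined as well. Of 12 relatives tested, the knockdown raised 2 and lowered 1 in unstimulated cells, and raised 3 and lowered 3 with IFN-β (3 and 2 with library totals), with medians of 0.05 and -0.05, beside 12.4% and 11.1% of all genes without and 11.5% and 12.7% with IFN-β. The pseudokinase gene *Trib1* rose by 0.27 and 0.24 where *Trib3* did not pass, while *Trib2* was at 0.11 ± 0.44 and -0.10 ± 0.56. The sestrin gene *Sesn1* fell by 0.34 and 0.23 and *Sesn3* fell by 0.24 with IFN-β, where *Sesn2* did not pass. *Atf5* rose by 0.43 with IFN-β (edgeR adjusted p = 0.00714), *Mthfd1* rose by 0.56 and the mitochondrial synthetase gene *Mthfd1l* fell by 0.36. *Chac2*, *Asnsd1*, *Psph* and *Shmt1* passed in neither knockdown comparison, and 1994 of the 3528 exon bases of *Asnsd1* are shared with an overlapping gene on the same strand.

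Genes whose profile over the 12 libraries was most like that of a member were found by the root mean square difference of centred log2 CPM. For *Atf4* they were *Wdr1*, *Ptpn23* and *Cstb* (0.0327 to 0.0394, against 0.180 for the variation of *Atf4* itself). For *Mthfd2* they were *Npc2*, *Cyfip2* and *Ly6e* (0.0698 to 0.0881, against 0.549), for *Shmt2* *Impdh2*, *Npm3* and *Fbl* (0.0711 to 0.0911, against 0.457), for *Ddit3* *Tlk2*, *Gsdmd* and *Ap3m2* (0.0713 to 0.0775, against 0.509), and for *Asns* *Prdx1*, *Ifrd1* and *Gm48996* (0.0920 to 0.105, against 0.281). None of the 10 members was among the 3 genes nearest to another member.

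In bulk RNA a difference in the cells and a difference in the RNA per cell cannot be told apart, so marker genes of the cell types in such cultures were set beside the knockdown results. Of all tested genes, 12.4% passed as higher and 11.1% as lower in the knockdown without IFN-β, and 11.5% and 12.7% with it. Of the 8 tested dendritic-like markers 4 passed as higher in the knockdown without and 5 with IFN-β, and their summed level was 4378 to 5182 CPM in shControl and 5088 to 5871 CPM in sh*Ppargc1b* libraries without IFN-β, and 4743 to 5734 and 5595 to 6425 CPM with it. Of the 6 mast cell or basophil-like markers 3 were higher without and 2 with IFN-β, at summed levels of 9.20 to 16.9 and 22.8 to 26.5 CPM without, and 11.99 to 18.5 and 18.3 to 26.4 CPM with it. Of the 8 neutrophil-like markers 1 (*S100a8*) was higher in both treatments, at 41.0 to 95.9 and 90.0 to 158 CPM without and 39.1 to 101 and 87.3 to 164 CPM with IFN-β. Macrophage-like markers were lower in 2 of 8 without and 3 of 8 with IFN-β, at 2408 to 2560 and 2394 to 2448 CPM without and 3153 to 3374 and 2933 to 3043 CPM with it. The part of these markers in the results for *Asns*, *Mthfd2*, *Psat1* and *Atf4* was not tested. Of the 4 eosinophil-like markers none passed with edgeR in either treatment (33.7 to 67.7 CPM summed in shControl and 23.7 to 45.6 CPM in sh*Ppargc1b* libraries without IFN-β), while 1 had an unadjusted p under 0.05 in each, and DESeq2 called 1 with IFN-β. Of the 9 proliferation genes 1 was higher and 1 lower without IFN-β and none passed with it by edgeR or DESeq2, where 2 had an unadjusted p under 0.05. The lymphocyte-like and erythroid-like markers stayed under 1 CPM summed in every library, with *Hba-a1* at 0 in 3 of the 4 groups.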

How the data were processed

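RNA was depleted of ribosomal RNA and sequenced as read pairs from 12 libraries, 3 in each of the 4 groups. The authors trimmed reads with Trim Galore 0.6.0 and mapped them to mm10 (GRCm38) with STAR, for which the submitters' processing notes give version 2.7.8a, and deposited the raw counts per GENCODE gene that STAR gives for uniquely mapped pairs, with no normalization. A read pair that maps to several places, as in near-identical copies of *Phgdh*, is therefore not counted. Replicates are numbered here in record order, since the labels do not number them, and were not paired. Nothing in the labels says that replicates came from separate mice, so p-values measure the spread between these libraries, which may be technical.

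The counts were scaled by TMM and tested with edgeR 4.0.16 (R 4.3.3). Genes were kept by filterByExpr (minimum count 10, minimum total 15), which left 18228 genes. All 12 libraries entered a single quasi-likelihood model with a mean for each group, and p-values were adjusted by Benjamini-Hochberg over all tested genes, with a threshold of 0.05. CPM are on TMM-scaled library sizes, and profiles for likeness used log2 CPM with a prior count of 2. Alternatives were library totals, relative log expression (RLE) size factors, DESeq2 1.42.0, 2 other filters, fits of only the groups compared, a term for the run of library codes, and leaving out each library. The code was also run on simulated counts that gave every gene the same spread beyond counting noise, which does not test the calls made here. Exon positions came from GENCODE M21 (GRCm38) and near-identical transcripts from blastn 2.17.0. All 12 value columns were used.

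The 10 genes and the gene lists, which were written from general knowledge, were chosen with earlier results of these data known, and 1 gene of the lists is not reported here. Beyond the 10 genes, up to 2 rises and 2 falls per list with a mean log2 CPM of at least 1 are named for each knockdown comparison and for IFN-β in shControl, together with all relatives of the 10 genes, and other named genes were chosen after their values were seen.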

Additional observations from a re-analysis of the deposited data

Results flagged for a closer look

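The knockdown effect differed between the treatments for a gene outside the 10, from the list of other ATF4 targets. For *Slc3a2*, the chain that carries amino acid transporters to the membrane, the effect with IFN-β minus that without it was -0.32 on the log2 scale (edgeR adjusted p = 0.0206). Its levels were 170 ± 2.68 and 227 ± 5.51 CPM in unstimulated shControl and sh*Ppargc1b* cells and 301 ± 10.3 and 322 ± 14.2 CPM with IFN-β (SD, n = 3). The value stayed between -0.36 and -0.29 in 18 alternatives and passed in 10 of them, with adjusted p up to 0.0844. It was not past the threshold without any 1 of 8 libraries, namely the 3 unstimulated shControl libraries, shControl IFN-β replicate 3, sh*Ppargc1b* unstimulated replicates 2 and 3 and sh*Ppargc1b* IFN-β replicates 1 and 3.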

How the results depend on the processing

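Of 50 results for the 10 genes, 38 kept their side of the threshold in every alternative, 12 changed side in at least 1, and none turned a call in the other direction. In 34 of 934 alternative values the sign differed where neither value was past the threshold. The number of genes past the threshold with IFN-β in the knockdown comparison, 1 in the main model, was 2 with library totals, with a minimum of 1 CPM in 3 libraries, with a term for the run of library codes and with only the groups compared, and 1 to 2 when a library was left out. The second gene was *Atf4*, except without sh*Ppargc1b* IFN-β replicate 2, where it was *Trib3*. For the interaction the 10 genes gave 1 call, *Mthfd2*, with RLE size factors, DESeq2, all genes with at least 1 count, a minimum of 1 CPM in 3 libraries and the term for the run of library codes. Over all genes the interaction, 133 calls in the main model, gave 84 with library totals, 449 with DESeq2, 525 with all genes of at least 1 count, 425 with the term for the run of library codes, and 37 to 231 when a library was left out, the fewest without shControl unstimulated replicate 3 and the most without sh*Ppargc1b* IFN-β replicate 2. With library totals the response to IFN-β was called in the direction opposite to the main value for *Cebpg* (-0.18 in shControl, -0.13 in sh*Ppargc1b* cells), *Atf6* (-0.11 in shControl) and *Eif2ak1* (-0.20 in sh*Ppargc1b* cells). The cause of these changes was not tested. The labels carry no replicate numbers, so the run of library codes, with a library of every group in each run, was the only block fitted, and the labels do not say what a run stands for. Depth limits *Chac1* (3 to 31 counts per library), and multiple mapping limits *Phgdh*.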

Other observations

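Another branch of the response to misfolded protein acts through chaperones of the endoplasmic reticulum. The knockdown raised 9 of 20 genes of this branch and lowered 1 in unstimulated cells, and it also raised 9 and lowered 1 with IFN-β, with medians of 0.14 and 0.16 on the log2 scale. Over all genes 12.4% were higher and 11.1% lower without IFN-β, and 11.5% and 12.7% with it. They included *Creld2* (0.48 and 0.41 without and with IFN-β), *Hspa5*, which encodes the chaperone BiP (0.46 and 0.22), and the secreted factor *Manf* (0.36 and 0.35). Of the sensors of this branch, *Ern1* fell by 0.20 without IFN-β and *Atf6* fell by 0.21 with it. *Hspa5* went from 326 to 356 CPM in unstimulated shControl to 410 to 502 CPM in unstimulated sh*Ppargc1b* libraries, and reached 694 to 833 and 869 to 907 CPM with IFN-β. IFN-β in shControl raised 14 and lowered 1 of the 20, against 23.7% and 24.6% of all genes, but with library totals it raised 5 and lowered 7. The rise of *Hspa5* in shControl was 1.15 with TMM and 0.91 with library totals, past the threshold with both, while that of *Manf* (0.34) was 0.10 with library totals and did not pass.

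The chaperones and proteases of mitochondria gave no call in unstimulated sh*Ppargc1b* cells among 10 genes tested with edgeR or DESeq2, and 2 had an unadjusted p under 0.05. Of all tested genes, 12.4% passed as higher and 11.1% as lower in the knockdown without IFN-β, and 11.5% and 12.7% with it. With IFN-β *Hspd1* (0.25) and *Hspe1* (0.23), which encode the folding chamber of the matrix, were higher and *Trap1* was lower (-0.17), but *Trap1* did not pass with library totals. *Hspd1* and *Hspe1* share 112 exon bases on opposite strands. IFN-β in shControl lowered 6 of the 10, with *Clpp* (-0.69) and *Hspd1* (-0.68) falling most, and raised *Yme1l1* (0.40), against 24.6% of all genes lowered and 23.7% raised. With library totals it lowered 9 of the 10 and raised 1.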
